A study of Saccharomyces cerevisiae with 12 samples.

Results

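The genes described here are the 10 yeast genes that build, break down and regulate glycogen: *GSY1*, *GSY2*, *GLC3*, *GLG1*, *GLG2*, *GPH1*, *GDB1*, *GAC1*, *PIG1* and *PIG2*. They were picked by name from the 7126 features of an RNA-seq expression table. The rule used no measured values, but the genes were chosen with earlier results of these data known. All 10 passed the filter on low values that left 6497 features to test. The table covers *Saccharomyces cerevisiae* of the wild-type strain BY4730 and of the *RRD1* knockout strain YSC6273-201925697, each without rapamycin and 50 min after 100 nM rapamycin was added. All cultures were in YPD medium at 30 °C in log phase, and each of the 4 groups holds 3 libraries, numbered 1, 3 and 5 without the drug and 2, 4 and 6 with it in both strains. The repeats were made on 3 different days, but the libraries of a day are not named.

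Glycogen is the branched glucose polymer in which yeast stores carbohydrate, and cells are known to fill this store when nutrients run short. A glycogenin protein starts the chain, glycogen synthase lengthens it with glucose from UDP-glucose, and a branching enzyme adds the branch points. Phosphorylase and a debranching enzyme take the polymer apart again. Phosphorylation by several kinases switches the synthase off, and the phosphatase Glc7, brought to glycogen by targeting subunits, switches it back on. Rapamycin inhibits TORC1, the kinase complex that signals nutrient supply to growth, and Rrd1 is a peptidyl-prolyl isomerase that activates phosphatases of the PP2A family, which act below TORC1.

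The libraries were checked before the glycogen genes were read. *RRD1* itself lay between 47.5 and 85.3 FPKM (fragments normalized for transcript length and for mapped reads) in the wild-type libraries and between 0 and 0.203 in the knockout libraries, which fits the labels. *LEU2*, *URA3* and *MET17* were listed at 0 in every library. The a-cell gene *STE2* was at 530.5 FPKM or more throughout, against at most 11.2 for the alpha-cell gene *STE3*. Another alpha-cell gene, *MF(ALPHA)2*, was not silent and lay between 28.9 and 59.8 FPKM. In the genes named next, knockout libraries 1 and 2 stood apart from the other knockout libraries of their groups. In them the hexokinase gene *HXK1* was at 106 and 253 FPKM, against 16.9 to 80.1 in the other 4 knockout libraries and 145 to 327 in the wild type, and *STE2* was also higher than in the other knockout libraries. Over all tested features, their median absolute log2 difference from the other 2 libraries of the group was 0.164 and 0.199. Wild-type libraries 1 and 2 differed as much, by 0.209 and 0.194. The part of knockout libraries 1 and 2 in the results below was not tested beyond leaving them out. Only 1 knockout strain was profiled, so the deletion and any other difference between the strains cannot be told apart, and in RNA from whole cultures fewer expressing cells and less RNA per cell cannot be told apart either.

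Rapamycin raised most of the glycogen genes in both strains, and some of them were lower in the knockout. In the wild type 8 of the 10 rose with the drug, where 35.9% of all features were called higher. In the knockout 7 of the 10 rose, where 36.4% of all features were called higher. Without the drug *GPH1*, *GSY1* and *GSY2* were lower in the knockout, where 0.554% of all features were called lower. With it *GPH1*, *GDB1*, *GSY2* and *GLC3* were lower, where 5.79% of all features were. The tests were limma on log2(FPKM + 1) with Benjamini-Hochberg adjustment over all 6497 features, a gene was called at an adjusted *p*-value under 0.01, and all fold changes are on that log2 scale, which understates the changes of low genes.

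**Figure D1:**
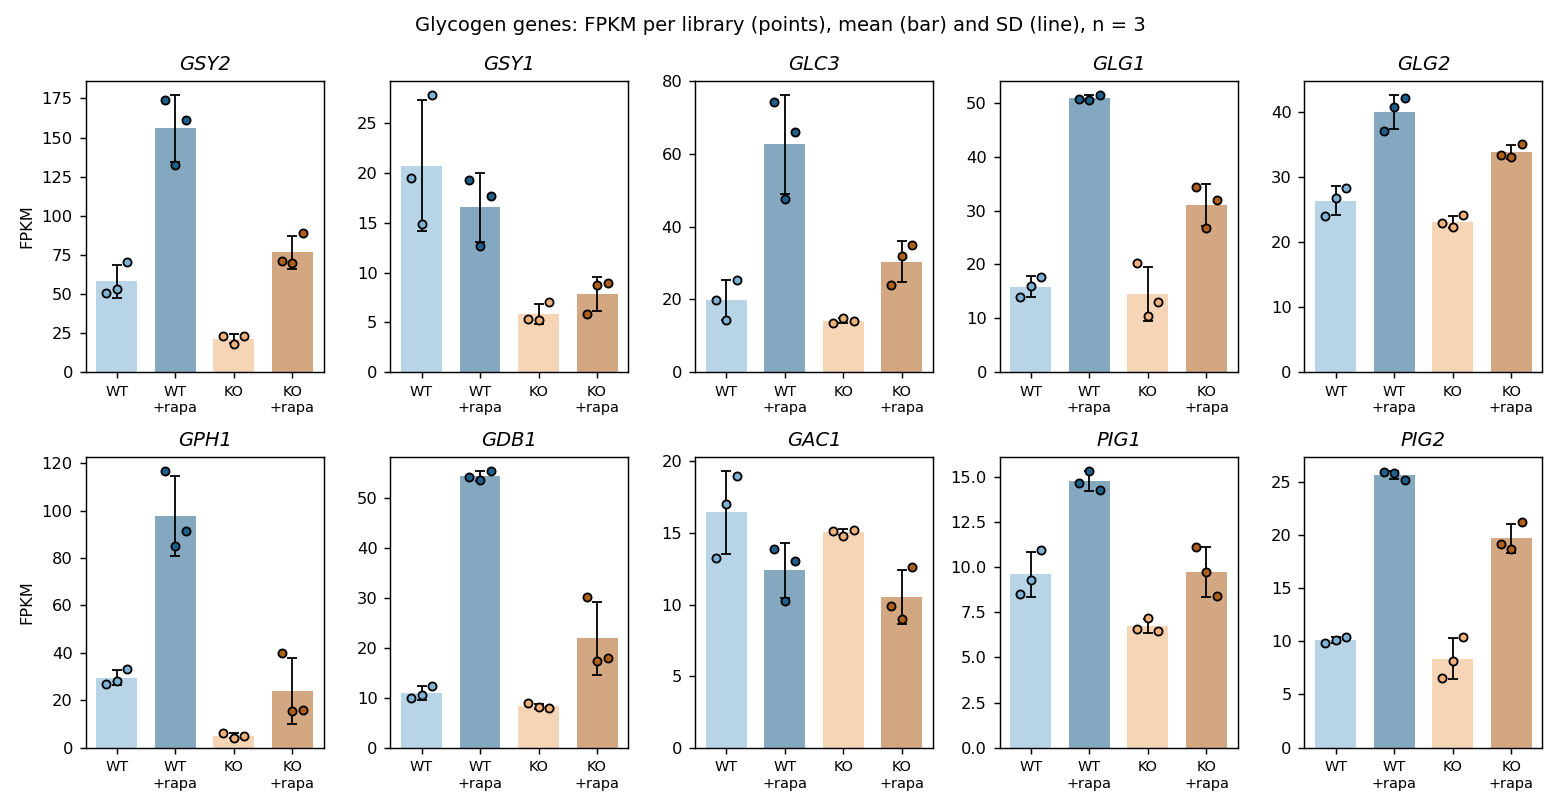
Levels of the 10 glycogen genes in FPKM (y axis, from 0) in wild type (WT, blue) and *RRD1* knockout (KO, orange), without and with rapamycin (rapa, darker). Points are libraries in the order of their numbers, bars are means and lines are SDs (n = 3). *GSY2* and *GPH1* rise in both strains and stay lower in the knockout, whereas *GSY1* is low in the knockout with or without the drug and *GAC1* is highest without rapamycin.

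Glycogen synthase is encoded by a pair of duplicated genes. *GSY2* encodes the main isoform, and it was the most abundant of the 10 per length in 3 of the 4 groups. Its FPKM was 50.8, 53.2 and 70.3 in the wild type, 174, 132 and 161 in the treated wild type, 23.0, 17.9 and 22.9 in the knockout, and 71.2, 69.7 and 88.8 in the treated knockout. No library of one group overlapped the compared group in any of the 4 comparisons, and the lowest library of the treated knockout lay just below the highest of the untreated wild type. *GSY2* rose with rapamycin by 1.41 ± 0.16 (SE) in the wild type (adjusted *p* = 1.6e-05) and by 1.80 ± 0.16 in the knockout (adjusted *p* = 4.3e-06). It was lower in the knockout by a log2 fold change of -1.40 ± 0.16 without rapamycin (adjusted *p* = 0.0027) and -1.02 ± 0.16 with it (adjusted *p* = 0.0012).

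*GSY1*, the other synthase gene, differed between the strains but was not called in either rapamycin response. Its FPKM was 19.5, 14.9 and 27.9 in the wild type and 19.3, 12.7 and 17.7 after rapamycin. In the knockout it was 5.31, 5.22 and 7.04, and 5.86, 8.77 and 8.94 after rapamycin. All 6 knockout libraries thus lay below all 6 wild-type libraries, while treated and untreated libraries of a strain overlapped. The knockout was lower by -1.63 ± 0.24 without rapamycin (adjusted *p* = 0.0079), a call kept in only 6 of 21 alternative settings. The value with rapamycin, -0.99 ± 0.24, missed the threshold (adjusted *p* = 0.012). The responses were -0.29 ± 0.24 in the wild type (adjusted *p* = 0.32) and 0.36 ± 0.24 in the knockout (adjusted *p* = 0.22), the latter turning to -0.099 under quantile normalization.

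Because FPKM is scaled for length, the paralogs can be set against each other within a library. *GSY2* exceeded *GSY1* by a ratio of 2.90 ± 0.59 (SD, n = 3) in the wild type, 9.52 ± 0.80 in the treated wild type, 3.67 ± 0.58 in the knockout and 10.01 ± 2.11 in the treated knockout. The treated ratios were all above the untreated ones in each strain, and the ratios of the strains overlapped under each condition. With 3 libraries against 3 the exact two-sided permutation test cannot go below *p* = 0.1, which both responses reached (0.2 after adjustment over 12 ratio tests). The coding sequences of the pair share no stretch of 100 nt with at most 2 mismatches, and their longest identical run is 20 nt, although 82.0% of aligned residues are the same, so no single read of 100 nt would match both genes at that tolerance.

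*GLC3* encodes the branching enzyme, which the cell needs for compact glycogen particles. Its FPKM was 19.8, 14.3 and 25.3 in the wild type, 74.2, 47.6 and 66.0 in the treated wild type, 13.5, 14.8 and 14.1 in the knockout, and 24.1, 32.0 and 34.9 in the treated knockout. The untreated strains overlapped, and after the drug all knockout libraries were below all wild-type libraries. *GLC3* rose by 1.62 ± 0.22 in the wild type (adjusted *p* = 5.0e-05) and by 1.03 ± 0.22 in the knockout (adjusted *p* = 0.0016). It was lower in the treated knockout by -1.01 ± 0.22 (adjusted *p* = 0.0056). That difference missed the threshold when library 2 or 6 of the wild type, or 2 or 4 of the knockout, was left out (adjusted *p* of at most 0.029 in all settings), and the rise in the knockout missed it under both scalings (0.54 under quantile normalization).

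*GLG1* and *GLG2* encode the glycogenins that prime the chain, and they differed in how far they rose. *GLG1* was at 13.9, 16.0 and 17.7 FPKM in the wild type and at 50.7, 50.6 and 51.5 after rapamycin, and at 20.2, 10.5 and 13.0 in the knockout and 34.4, 26.8 and 31.9 after rapamycin. *GLG2* was at 24.0, 26.7 and 28.3 in the wild type and 37.1, 40.7 and 42.2 after rapamycin, and at 22.9, 22.3 and 24.1 in the knockout and 33.3, 33.1 and 35.0 after rapamycin. Both rose in both strains with no overlap between treated and untreated libraries, *GLG1* by 1.63 ± 0.19 and 1.08 ± 0.19 (adjusted *p* = 2.1e-05 and 5.8e-04) and *GLG2* by 0.58 ± 0.09 and 0.53 ± 0.09 (adjusted *p* = 1.7e-04 and 4.5e-04). The rises of *GLG2* were not called in either strain under median-ratio scaling (0.30 and 0.19) or quantile normalization. *GLG1* thus passed *GLG2* in the wild type, from a ratio of 0.601 ± 0.023 to 1.28 ± 0.08 (exact permutation test *p* = 0.1, 0.2 adjusted). In the knockout the ratio went from 0.630 ± 0.220 to 0.918 ± 0.111, with an overlap that knockout library 1 made, where *GLG1* was highest among the untreated knockout libraries.

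The breakdown genes differed most between the strains with rapamycin, and *GPH1* did so without it too. *GPH1* encodes glycogen phosphorylase, which releases glucose as glucose 1-phosphate. Its FPKM was 27.01, 28.3 and 33.2 in the wild type, 117, 84.9 and 91.5 in the treated wild type, 6.26, 4.13 and 4.81 in the knockout, and 39.9, 15.7 and 15.8 in the treated knockout. No groups overlapped within a comparison, but knockout library 2, at 39.9, was far above the other treated knockout libraries and above the untreated wild type. *GPH1* was lower in the knockout by -2.34 ± 0.30 without the drug (adjusted *p* = 0.0035) and by -2.12 ± 0.30 with it (adjusted *p* = 6.3e-04), and these became -2.48 and -2.55 without knockout libraries 1 and 2. It rose with rapamycin by 1.69 ± 0.30 in the wild type (adjusted *p* = 4.6e-04) and 1.91 ± 0.30 in the knockout (adjusted *p* = 2.4e-04), or 1.62 in the knockout without those libraries.

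*GDB1* encodes the debranching enzyme, which clears the branch points that phosphorylase cannot pass. Its FPKM was 9.89, 10.5 and 12.5 in the wild type, 54.3, 53.7 and 55.6 in the treated wild type, 8.87, 8.20 and 7.89 in the knockout, and 30.3, 17.4 and 18.1 in the treated knockout. The treated wild-type libraries lay within 2 FPKM of each other, and the treated knockout was below them in each library, with knockout library 2 again the highest. The rise was 2.22 ± 0.18 in the wild type (adjusted *p* = 1.1e-06), the largest of the 10, and 1.26 ± 0.18 in the knockout (adjusted *p* = 1.2e-04). *GDB1* was lower in the treated knockout by -1.32 ± 0.18 (adjusted *p* = 5.1e-04), and the untreated value of -0.35 ± 0.18 was not called (adjusted *p* = 0.30).

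**Figure D2:**
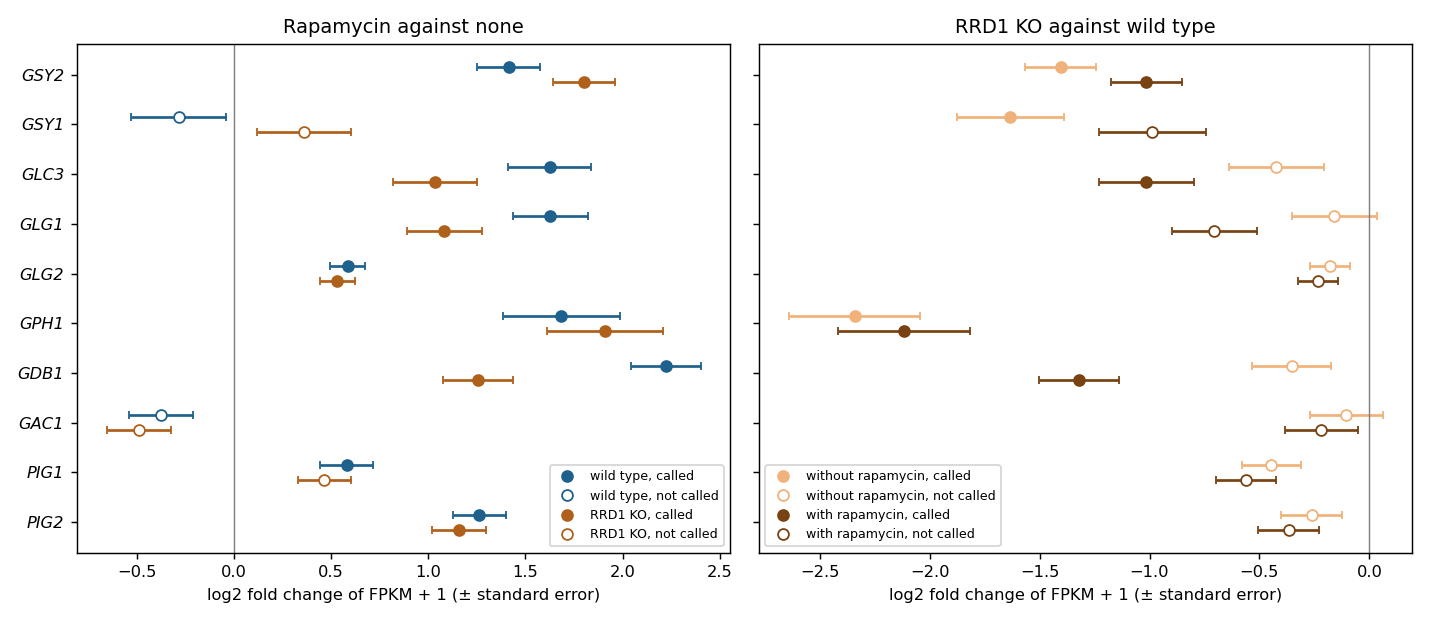
Log2 fold changes of FPKM + 1 with their standard errors (x axes) for the 10 glycogen genes (rows), for rapamycin against none in each strain (left panel) and for knockout against wild type in each condition (right panel). Filled points are called at an adjusted *p*-value under 0.01. In the left panel *GDB1* has the widest gap between the strains, 2.22 against 1.26, and in the right panel *GPH1* is the lowest at -2.34 and -2.12.

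Phosphorylase over both synthases gave a ratio of breakdown to synthesis transcripts in each library. *GPH1* over the sum of *GSY1* and *GSY2* was 0.380 ± 0.039 in the wild type, 0.567 ± 0.050 in the treated wild type, 0.187 ± 0.031 in the knockout and 0.293 ± 0.195 in the treated knockout. Untreated knockout libraries were all below untreated wild-type libraries, and treated wild-type libraries were all above untreated ones (exact permutation test *p* = 0.1 for each, the smallest possible, 0.2 adjusted). In the treated knockout, library 2 gave 0.517 against 0.200 and 0.162 in the other libraries, so this group overlapped both the untreated knockout and the treated wild type.

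**Figure D3:**
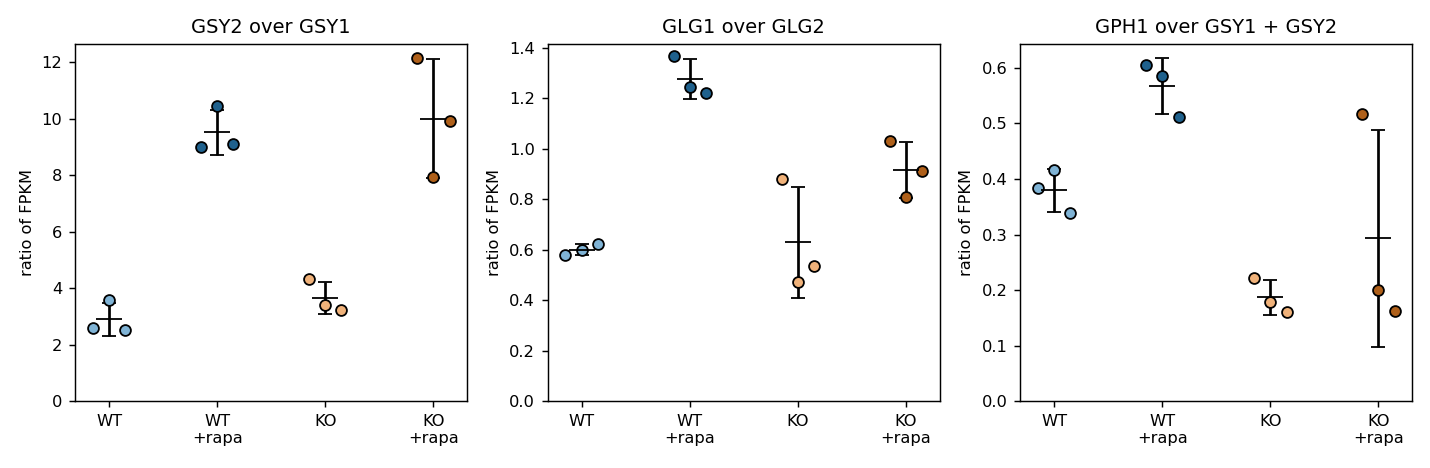
Ratios of FPKM within each library (y axes, from 0) for *GSY2* over *GSY1*, *GLG1* over *GLG2* and *GPH1* over both synthases, by group (x axes). Points are libraries, horizontal marks are means and lines are SDs (n = 3). The synthase ratio separates treated from untreated libraries in both strains, and knockout library 2 stands alone at 0.517 in the right panel.

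The targeting subunits that bring Glc7 to glycogen did not move together. *PIG2*, whose product binds Gsy2, was at 9.79, 10.1 and 10.4 FPKM in the wild type and 25.9, 25.8 and 25.2 after rapamycin, and at 6.56, 8.19 and 10.4 in the knockout and 19.2, 18.6 and 21.2 after rapamycin. It rose by 1.26 ± 0.14 in the wild type (adjusted *p* = 1.1e-05) and 1.16 ± 0.14 in the knockout (adjusted *p* = 3.1e-05), with no overlap between treated and untreated libraries. *PIG1*, a relative of *GAC1*, was at 8.52, 9.31 and 10.95 in the wild type and 14.7, 15.3 and 14.3 after rapamycin, and at 6.58, 7.21 and 6.47 in the knockout and 11.1, 9.74 and 8.38 after rapamycin. Its libraries were also separate in all 4 comparisons, yet only the rise in the wild type was called (0.58 ± 0.14, adjusted *p* = 0.0031), and that call was lost without wild-type library 1, 3 or 4 and under both scalings. The rise of *PIG1* in the knockout was 0.46 ± 0.14 (adjusted *p* = 0.012), falling to -0.044 under quantile normalization.

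*GAC1*, the best known of these subunits, was the only one of the 10 genes with a lower mean after rapamycin in both strains as deposited, which under quantile normalization *GSY1* had too. Its FPKM was 13.3, 17.04 and 19.0 in the wild type, 13.9, 10.2 and 13.1 in the treated wild type, 15.2, 14.8 and 15.2 in the knockout, and 9.92, 8.995 and 12.6 in the treated knockout. The wild-type groups overlapped, and the treated knockout was below the untreated one in every library. The values of -0.38 ± 0.17 in the wild type (adjusted *p* = 0.066) and -0.49 ± 0.17 in the knockout (adjusted *p* = 0.024) were not called. Under median-ratio scaling they were -0.65 and -0.82 and were called (adjusted *p* = 0.0036 and 9.5e-04). *GAC1* was also the only one of the 10 whose strains overlapped with the drug.

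Counted over the group, the response to rapamycin has to be read against a wide background. In the wild type 8 of the 10 genes were called higher and 0 lower, where 35.9% of all features were called higher, and the same 8 had every treated library above every untreated library, which 46.3% of all features had. In the knockout 7 were called higher and 0 lower, where 36.4% of all features were called higher, and 8 had every treated library above, which 50.5% of all features had. The median log2 fold change of the 10 was 1.34 in the wild type and 1.06 in the knockout, against 0.29 and 0.34 over all features. Median-ratio scaling moved the median of all features by -0.28 and -0.34 in these comparisons, and it took the share of calls that were higher from 68.8% to 49.2% in the wild type and from 77.9% to 49.4% in the knockout. Under either scaling 6 of the 10 genes were called higher and 1 lower (*GAC1*) in the wild type, and 5 higher and 1 lower (*GAC1*) in the knockout. Of all 6497 features, median-ratio scaling called 1572 higher and 1622 lower in the wild type, and 1289 and 1319 in the knockout. Quantile normalization called 1723 higher and 1615 lower in the wild type, and 1323 and 1398 in the knockout. The rises of *GSY2*, *GPH1*, *GDB1*, *GLG1* and *PIG2* were called in both strains under all 21 alternative settings.

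Between the strains the background was lower. Without rapamycin 3 of the 10 genes were called lower in the knockout and 0 higher, where 0.554% of all features were called lower. All 10 log2 fold changes were below 0 (those of *GLG1* and *GAC1* turned above 0 under quantile normalization), with a median of -0.39 against -0.08 over all features, and 5 of the 10 (*GSY1*, *GSY2*, *GPH1*, *GDB1* and *PIG1*) had every knockout library below every wild-type library, which 18.9% of all features had. The folds varied less over the alternative settings than the calls did. *GSY1* stayed between -1.84 and -1.41, *GPH1* between -2.54 and -2.20 and *GSY2* between -1.49 and -1.26, with adjusted *p* of at most 0.053. *GSY1* kept its call in 6 of 21 alternative settings, *GPH1* in 14 and *GSY2* in 17, and none of the 3 was called without wild-type library 5 or knockout library 3.

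With rapamycin 4 of the 10 genes were called lower in the knockout and 0 higher, where 5.79% of all features were called lower. Every treated knockout library was below every treated wild-type library for 9 of the 10 genes, which 22.7% of all features had, and the median log2 fold change was -0.85 against -0.02. *GSY2*, *GPH1* and *GDB1* kept their calls in 20 of 21 alternative settings, the exception being a fit of the 6 treated libraries alone, which called none of the 10 (adjusted *p* of 0.010 to 0.014 for these 3). *GLG1* (-0.70 ± 0.19, adjusted *p* = 0.021), *PIG1* (-0.56 ± 0.14, adjusted *p* = 0.012), *PIG2* (-0.37 ± 0.14, adjusted *p* = 0.074) and *GLG2* (-0.23 ± 0.09, adjusted *p* = 0.083) were not called.

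These comparisons share libraries: the treated wild type enters both its own rapamycin response and the comparison of the strains with the drug. Whether the response itself differed between the strains was tested by the interaction (knockout response minus wild-type response). limma called 0 of the 10 genes there, where 0.262% of all features (17 of 6497) were called, and 1 of the 10 had an unadjusted *p*-value under 0.05, which 16.8% of all features had. That gene was *GDB1*, with a difference of -0.97 ± 0.25 (95% interval -1.53 to -0.41, unadjusted *p* = 0.0030, adjusted *p* = 0.072, and adjusted *p* from 0.010 to 0.18 over the alternatives). *GLC3* and *GLG1* had differences of -0.59 and -0.55 with intervals that just included 0 (-1.26 to 0.08 and -1.15 to 0.05), and *GSY1* and *GSY2* had differences of 0.64 and 0.39 (-0.11 to 1.40 and -0.11 to 0.89). For *GPH1* the interval, -0.71 to 1.16, left room for a response in the knockout that was smaller or larger, and the sign turned without knockout library 2.

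The order of the levels showed how the strain and the drug rearranged the set. In the wild type *GSY2* stood highest at 58.1 ± 10.6 FPKM (SD, n = 3) and apart from *GPH1* at 29.5 ± 3.3, which overlapped *GLG2* at 26.3 ± 2.2. With rapamycin the top of the wild type was *GSY2* at 156 ± 21, *GPH1* at 97.7 ± 16.9 and *GLC3* at 62.6 ± 13.6, apart from each other, with *GLC3* overlapping *GDB1* at 54.5 ± 0.96. In the untreated knockout *GLG2* at 23.1 ± 0.9 and *GSY2* at 21.2 ± 2.9 shared the top and overlapped, while *GPH1* at 5.07 ± 1.09 was the lowest of the 10 and overlapped *GSY1* at 5.86 ± 1.02. In the treated knockout *GSY2* at 76.6 ± 10.6 was again alone at the top, *GPH1* at 23.8 ± 13.9 overlapped *GLC3* and *GDB1*, and *GSY1* at 7.86 ± 1.73 was the lowest and overlapped *PIG1*. Summed over both breakdown genes the level was 40.5 ± 4.6 FPKM in the wild type and 13.4 ± 1.5 in the knockout, and 152 ± 17 and 45.7 ± 21.2 with rapamycin. The sum of the 5 synthesis genes was 141 ± 25 and 78.9 ± 7.4, and 326 ± 37 and 180 ± 17 with rapamycin.

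The promoters were searched for short motifs that are known in yeast to bind regulators of the nutrient and stress response: AGGGG, the core of the stress response element bound by Msn2 and Msn4, AGGGAT, the core of the post-diauxic shift element bound by Gis1, and GATAAG, a core bound by GATA factors. Both strands were searched in the R64 genome (RefSeq). AGGGG and AGGGAT cannot match at the same place, GATAAG can run into either, and no match of one overlapped a match of another in the promoters of the 10 genes. From 250 bases before to 50 after the start, AGGGG was found for 4 of the 10 genes, against 21.6% of all 6001 promoters, AGGGAT for 1, against 9.33%, and GATAAG for 3, against 14.7%. A window of 600 bases before the start was added after these values had been seen. In it AGGGG was found for 7 of the 10 genes, against 39.7% of 5999 promoters, and 6 of the 10 held it at least 2 times, against 10.7%. AGGGAT was found there for 3 (*GSY2*, *GLG1* and *GAC1*), against 18.2%, and GATAAG for 5, against 26.8%.

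In this later window all 5 genes that were called lower in the knockout in either condition had AGGGG, which 39.7% of all promoters had. So did *GLG2* and *PIG2*, which were called between the strains in neither condition. *GLG1*, *GAC1* and *PIG1* had none there. In the first window *GSY2*, *GLC3* and *GDB1* of the 5 had AGGGG, and *GPH1* and *GSY1* did not. For each of the 5, the stretch with its AGGGG matches in the later window is printed because the differences between the strains were called. A further AGGGG of *GPH1* starts 545 bases before the gene, outside its printed stretch. Each reads 5′ to 3′ on the strand of its gene, with AGGGG (or CCCCT, where the match is on the other strand) and GATAAG in capitals, and all lie between 480 and 170 bases before the annotated start. A match is a description of the letters and not of binding.
*GPH1*, chrXVI:860936-861036, plus strand: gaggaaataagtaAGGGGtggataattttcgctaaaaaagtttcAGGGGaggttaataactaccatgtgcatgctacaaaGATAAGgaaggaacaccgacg
*GSY2*, chrXII:660326-660536, plus strand: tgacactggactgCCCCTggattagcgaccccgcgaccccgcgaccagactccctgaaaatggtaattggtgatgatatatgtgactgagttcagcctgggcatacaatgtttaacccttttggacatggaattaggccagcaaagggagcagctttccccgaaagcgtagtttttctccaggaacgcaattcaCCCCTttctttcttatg
*GSY1*, chrVI:176711-176871, minus strand: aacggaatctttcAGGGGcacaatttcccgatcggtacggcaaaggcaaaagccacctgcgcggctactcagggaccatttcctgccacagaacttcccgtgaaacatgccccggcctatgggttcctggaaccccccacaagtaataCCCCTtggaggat
*GLC3*, chrV:132735-132920, plus strand: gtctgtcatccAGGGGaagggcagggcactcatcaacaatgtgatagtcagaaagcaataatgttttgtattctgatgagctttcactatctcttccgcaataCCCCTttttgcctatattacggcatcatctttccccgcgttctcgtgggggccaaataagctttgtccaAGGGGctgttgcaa
*GDB1*, chrXVI:901834-901874, plus strand: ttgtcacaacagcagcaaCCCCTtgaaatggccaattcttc

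*GSY2*, *GLC3*, *GPH1*, *GDB1*, *GLG2* and *PIG2* hold AGGGG in the 600 bases and were called higher with rapamycin in both strains. *GSY1* holds AGGGG at 467 and 332 bases before its start (the first base of each match) and was not called in either response. *GLG1* has no AGGGG in 600 bases and rose in both strains. *PIG1* and *GAC1* have none either, and *PIG1* was called higher in the wild type only and *GAC1* in neither strain. Whether the matches bear on the response was not tested.

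**Figure D4:**
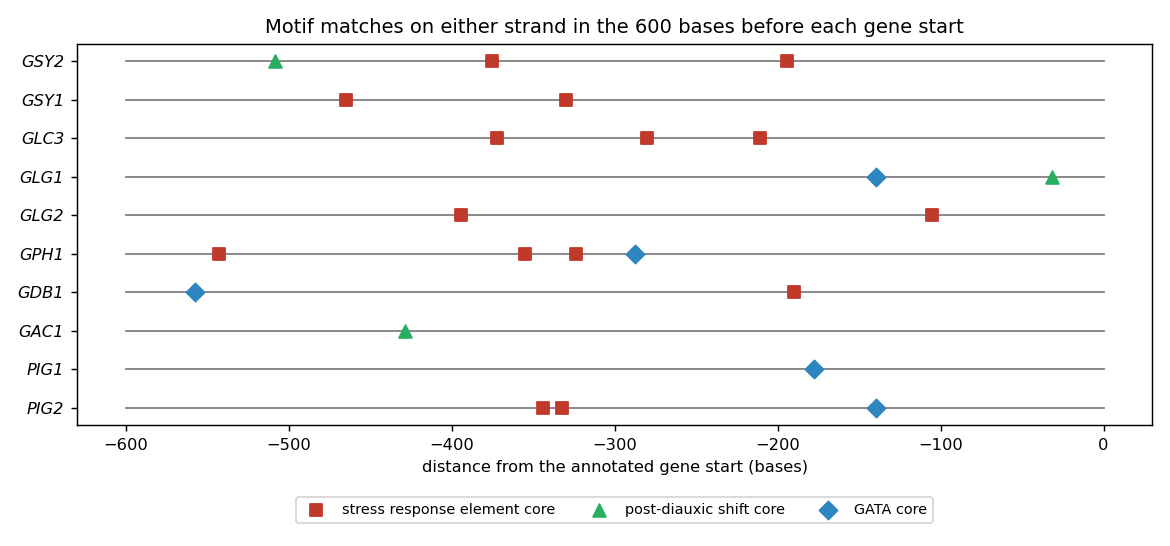
Positions of the motif cores on either strand in the 600 bases before the annotated start of each glycogen gene (x axis, bases from the start). Squares are stress response element cores, triangles post-diauxic shift cores and diamonds GATA cores. *GLC3* and *GPH1* carry 3 stress response element cores each, and *GLG1*, *GAC1* and *PIG1* carry none.

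All 10 genes are single coding exons in R64 with no other annotated gene overlapping them, at V:133120-135234 (*GLC3*, plus strand), VI:174265-176391 (*GSY1*, minus), IX:271161-272777 (*PIG2*, plus), X:154985-156127 (*GLG2*, minus), XI:552770-554620 (*GLG1*, plus), XII:660716-662833 (*GSY2*, plus), XII:689083-691029 (*PIG1*, minus), XV:667860-670241 (*GAC1*, minus), XVI:861306-864014 (*GPH1*, plus) and XVI:902044-906654 (*GDB1*, plus). They are not clustered, although *GSY2* and *PIG1* lie on chromosome XII and *GPH1* and *GDB1* on chromosome XVI. The other paralogs are further apart than the synthases, with 48.9% of aligned residues the same for *GLG1* and *GLG2* and 33.7% for *PIG1* and *GAC1*, and no pair shares a 100-nt stretch with at most 2 mismatches.

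The features whose pattern over the 12 libraries was most like that of each gene were named by the root mean square difference of log2(FPKM + 1) after centring each on its own mean. *GPH1*, whose own root mean square around its mean was 1.47, was closest to YPR160C-A at 0.336 and to *TSL1*, a subunit of trehalose synthase, at 0.362. YPR160C-A carries the locus number of *GPH1* and is not in the R64 annotation used here. The strand setting of the authors' counting is not given in the sources used here, so reads of the 2 features may not be separate. *GSY2* (1.02 around its mean) was closest to *IGD1*, which encodes an inhibitor of the debranching enzyme, at 0.236. *GDB1* (1.01) was closest to the aquaporin gene *AQY1* at 0.164, and among the 10 themselves the closest pair was *GLG2* and *PIG1* at 0.190. *GLG2* itself varied little, by 0.305 around its mean.

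For the supply of UDP-glucose only transcripts were measured, those of the genes of glucose phosphorylation and activation: *HXK1*, *HXK2*, *GLK1*, *PGM1*, *PGM2* and *UGP1*. With rapamycin, 2 of the 6 were called lower in the knockout and 2 higher, against 5.79% and 8.28% of all features. *PGM2*, the main phosphoglucomutase, was lower by -1.47 ± 0.26 (adjusted *p* = 0.0021), at 78.2, 44.9 and 52.5 FPKM against 209, 120 and 161 in the wild type, and *UGP1*, which makes UDP-glucose, was lower by -0.70 ± 0.14 (adjusted *p* = 0.0042). *PGM1*, the minor phosphoglucomutase, was higher by 0.70 ± 0.12 (adjusted *p* = 0.0017) and *HXK2*, the hexokinase of growth on glucose, by 0.97 ± 0.18 (adjusted *p* = 0.0025). The phosphoglucomutase genes thus differed in opposite directions, with no overlap of treated libraries for either. Without rapamycin limma called 0 of the 6 in either direction, although 5 had an unadjusted *p*-value under 0.05, which 20.1% of all features had, and the median was -1.13 against -0.08 over all features.

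In the wild-type response *PGM2* rose by 1.35 ± 0.26 (adjusted *p* = 7.5e-04), where 35.9% of all features were called higher. *HXK2* fell by 1.56 ± 0.18 on the log2 scale (adjusted *p* = 1.5e-05), where 16.3% of all features were called lower. In the knockout *PGM2* rose by 1.44 ± 0.26 (adjusted *p* = 5.9e-04) and the glucokinase gene *GLK1* by 2.14 ± 0.31 (adjusted *p* = 1.4e-04), where 36.4% of all features were called higher. *HXK2* fell in the knockout by 0.81 ± 0.18 (adjusted *p* = 0.0022), where 10.3% of all features were called lower. *UGP1* and *PGM1* were not called in either response.

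Transcripts of the enzymes that set the phosphorylation of glycogen synthase, and of their subunits or regulators, were read as 2 further lists. Of *GLC7* and 6 other subunits or regulators, 3 of the 7 rose in each strain, near the 35.9% and 36.4% of all features: *YPI1* (1.21 ± 0.14 in the wild type, adjusted *p* = 1.6e-05), whose product regulates Glc7, *GLC8* (0.51 ± 0.12, adjusted *p* = 0.0040), a Glc7 regulator, and *REG1* (0.57 ± 0.13, adjusted *p* = 0.0029), which targets Glc7 to proteins of glucose repression. *GLC7* itself lay between 309 and 365 FPKM in all 12 libraries and was not called in any comparison. Of 12 kinase, cyclin and subunit genes, 6 rose in each strain, against the same shares of all features: *PCL7*, *PCL8*, *PHO85*, *PSK1*, *PSK2* and *SIP2*. The largest rise was that of *PCL7*, a cyclin of the kinase Pho85, by 1.33 ± 0.11 in the wild type and 1.32 ± 0.11 in the knockout (adjusted *p* = 1.1e-06 and 2.3e-06). Between the strains limma called 0 of the 7 and 0 of the 12 without rapamycin (1 and 4 with an unadjusted *p*-value under 0.05, which 20.1% of all features had), and 0 of each with rapamycin (2 and 4, against 37.1% of all features).

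*SGA1*, the glucoamylase that sporulating cells use on glycogen, and *IGD1* made up the last list. Both rose in both strains, where 35.9% (wild type) and 36.4% (knockout) of all features were called higher. *SGA1* rose by 1.51 ± 0.24 in the wild type (adjusted *p* = 1.8e-04) and 1.53 ± 0.24 in the knockout (adjusted *p* = 2.1e-04), from 3.21, 3.39 and 6.71 FPKM in the wild type and 1.67, 2.16 and 2.26 in the knockout. *IGD1* rose by 1.31 ± 0.26 (adjusted *p* = 0.0010) and 1.62 ± 0.26 (adjusted *p* = 3.0e-04). limma called neither of them between the strains in either condition. Both had an unadjusted *p*-value under 0.05 in each, which 20.1% of all features had without rapamycin and 37.1% with it. None of the genes on these lists was called in the interaction (3 of the 6 genes of UDP-glucose supply had an unadjusted *p*-value under 0.05, and 0 of the others, against 16.8% of all features).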

How the data were processed

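RNA was measured in 12 libraries of 4 groups (2 strains, without and with rapamycin). The authors prepared TruSeq libraries, sequenced single reads of 100 nt, aligned them with TopHat and quantified genes with Cufflinks, and the deposited values are FPKM. Versions, genome build, annotation and strand setting are not given in the sources used here, and 0 columns were left unmapped. FPKM sums were 1848118 to 2584116. Depth was inferred from the steps of low values at 8440000 to 11780000 mapped reads, searched between 6000000 and 13990000 with assumed fragments of mean 200 nt and SD 80, with 55.9% to 81.0% of these values within 0.05 of a whole read. At that depth the lowest value of a glycogen gene (*PIG2*) rested on about 94.6 reads, a counting error of 10.3%.

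The paper called genes with CuffDiff at 0.01, which needs reads. Here limma 3.58.1 (R 4.3.3) was fitted to log2(FPKM + 1), as 4 group means with 8 residual degrees of freedom and a variance trend, over the 6497 features that reached a mean FPKM of 1. *p*-values measure the spread between repeats of 1 strain each. Ratios were tested with scipy 1.17.1. The alternatives were other pseudocounts (0.1), filters (none, 5), scalings, thresholds (0.05), blocks and libraries left out. Of the 7126 features, 6048 matched an R64 locus tag by name. R64 gene bounds equal the coding bounds, so gene starts are coding starts. The fit was tested on simulated independent values, with changes put into the untreated knockout only and scored only in the comparison without rapamycin. The members, the lists and the rule for neighbours (3 closest features per gene) were chosen with earlier results of these data known.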

Additional observations from a re-analysis of the deposited data

How the results depend on the processing

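Without rapamycin the count of glycogen genes lower in the knockout went from 3 to 0 when the 6 libraries compared were fitted alone and to 0 with a replicate block, and it ranged from 0 to 3 as libraries were left out (0 without wild-type library 5 or knockout library 3, and 1, *GSY2*, without wild-type library 1 or knockout library 5). With rapamycin the count went from 4 to 0 in a fit of the 6 treated libraries alone and to 7 at an adjusted *p*-value under 0.05. It ranged from 3 to 5 as libraries were left out. The count was 6 under quantile normalization (*GLG1* and *PIG1* added) and 4 under median-ratio scaling. Without the filter on low values, or without the variance trend, it was 5 (*PIG1* added). *GSY1* passed with rapamycin without wild-type library 3 or 5, *GLG1* without knockout library 1 and *PIG1* without knockout library 2. The counts called in the rapamycin responses stayed at 7 or 8 as libraries were left out, and under either scaling 6 of the 8 rises in the wild type and 5 of the 7 in the knockout remained. The interaction count was 0 in every setting run.

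Signs reversed only in values that were not called. Quantile normalization turned *GLG1* and *GAC1* without rapamycin to 0.0073 and 0.045 and the knockout responses of *GSY1* and *PIG1* to -0.099 and -0.044. As libraries were left out, *GLG1* without rapamycin ranged from -0.41 to 0.035 (above 0 without knockout library 3) and *GAC1* from -0.24 to 0.0012 (above 0 without wild-type library 5). In the interaction *GPH1* ranged from -0.20 (without knockout library 2) to 0.44, *GLG2* from -0.11 to 0.0095 and *GAC1* from -0.24 to 0.023 (both above 0 without wild-type library 1), and *PIG2* from -0.25 to 0.045 (above 0 without knockout library 5). *GPH1* was -0.066 there without knockout libraries 1 and 2, a setting chosen after seeing the data. The cause was not tested.

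The replicate block used the library numbers that the strains share. The deviations of same-numbered libraries of the strains correlated between -0.168 and 0.127 over the features, so the numbers were not taken as pairs. With the replicate block 3 features were called without rapamycin, 613 with it and 7 in the interaction, against 38, 914 and 17, and of the 10 genes 0, 3 and 0. In the same check, untreated and treated libraries of consecutive numbers of a strain (1 and 2, 3 and 4, 5 and 6) correlated by 0.161 to 0.288. All other such pairs were below 0, but deviations were taken from the group mean, so a pair above 0 pushes the others down. A fit with these as blocks, also chosen after seeing the data, called the same 8 and 7 rises and 0 of the 10 genes in the interaction, where it called 83 features. Quantile normalization called 103 features in the interaction, with the positive share at 61.2% against 29.4%. The 6 libraries compared alone gave 1 feature without rapamycin and 212 with it.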
